A study of Canis lupus familiaris with 15 samples.

Results

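Keratins and barrier genes of the epidermis were followed across canine lymphoma samples and skin: KRT1, KRT2, KRTDAP, DSG1, SPINK5, KRT15 and KRT19. These 7 genes were found by matching the RefSeq identifier of each array probe to the canine gene, out of 1357 genes with a RefSeq symbol and 36604 targets on the array. They are read by 11 probes on 15 spots per array. KRT1, KRT2, KRTDAP, KRT15 and KRT19 have 1 probe each, DSG1 has 2 and SPINK5 has 4, and the KRTDAP probe is printed on 5 spots. The level given throughout is the log2 of the background-corrected signal minus the 75th percentile of the array, so 0 marks the 75th percentile. A gene counts as measured on an array where the scanner software marked its spot as well above background. Levels of different probes are not comparable with each other, so each gene is compared only with itself. An exception is made for lists of marker genes, whose signals are summed before the log2. The brightest gene weighs most in such a sum.

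RNA of 15 samples from 5 dogs with lymphoma, a cancer of lymphocytes, was hybridised with 1 sample per array. Skin biopsies of MalcolmX and Rosco were the control tissue, so the controls also came from dogs with lymphoma. Biopsies labelled as original drug-resistant tumours came from MalcolmX, Jake, Rosco and Dog Y, and the descriptions of those of Rosco and Dog Y also call them taken before treatment. Thai gave 1 biopsy labelled as an original drug-sensitive tumour, called naive in its title. MalcolmX also gave 1 fine needle aspirate after metformin, a drug used against diabetes. Rosco gave 1 aspirate after failed chemotherapy and before metformin, 1 in remission after metformin, 3 at relapse after metformin, 1 labelled as a second original drug-resistant tumour, and 1 collected post mortem. In their titles the relapse aspirates are named no remission, and the failed-chemotherapy aspirate is named resistant, failed CHOP. The titles of the MalcolmX biopsy and aspirate name them tumor before and tumor after. Breed, age and drug doses are not given in the sources used here. Apart from that aspirate of MalcolmX, the samples from during and after treatment come from Rosco, so p-values within Rosco measure the spread between samples of 1 animal. The comparison with skin spans several dogs.

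Epidermis is a layered epithelium in which basal keratinocytes divide and the cells above them differentiate and cornify. Basal cells make KRT5 and KRT14, and KRT15 also belongs to basal cells and to the bulge of the hair follicle. Cells above the basal layer switch to KRT1, and KRT2 follows in the upper layers. DSG1 is a cadherin of desmosomes, the junctions that hold differentiated keratinocytes together. SPINK5 encodes LEKTI, an inhibitor of the kallikrein proteases that shed cornified cells, and KRTDAP is a small secreted protein of differentiating keratinocytes. KRT19 is a keratin of simple and glandular epithelia, also found in ducts and hair follicles. Lymphocytes are not known for any of these keratins.

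The arrays fell on 4 slides read on 2 scan days, and between 66.7% and 75.9% of probes were well above background on each. The number of arrays limits the precision. No spot of the 7 genes was saturated. The lymphoma label was checked with MS4A1, the gene of CD20 on B cells. It was measured on 11 of the 13 lymphoma arrays, at levels from 0.38 to 3.53. The Rosco biopsy (−7.16) and the second resistant aspirate of Rosco (−6.74) were not well above background, and both stood apart from the other lymphoma arrays in gland genes. CA6, a secreted carbonic anhydrase of salivary glands, reached 8.59 in that biopsy and 8.99 in that aspirate. Elsewhere it was at most 1.45, in the skin of Rosco. The skin of MalcolmX also carried MS4A1 (0.84), while that of Rosco did not (−8.04, not well above background). The comparison with skin is therefore also given without the Rosco biopsy, while the comparison of Rosco's original-tumour samples consists of these 2 arrays.

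The 2 skin biopsies held all 7 genes well above background. KRT1 stood at 5.36 in the skin of MalcolmX and 8.26 in that of Rosco. Among the 13 lymphoma arrays it was well above background only in the biopsy of Thai (−6.28), and the other 12 lay between −8.67 and −6.34. KRT2, by contrast, was well above background on all 15 arrays. Its level was 2.08 and 6.44 in the skins of MalcolmX and Rosco, and −4.61, −4.68, −5.25 and −4.72 in the resistant biopsies of MalcolmX, Jake, Rosco and Dog Y. It was −3.62 in the biopsy of Thai and −4.55 in the MalcolmX aspirate after metformin. In the remaining samples of Rosco it was −2.23 after failed chemotherapy, −1.63 in remission, −3.62, −3.40 and −3.95 in relapse aspirates 1 to 3, −4.38 in the second resistant aspirate and −3.59 after death. Both skins thus lay above all lymphoma arrays, and among the latter the failed-chemotherapy and remission aspirates were the highest.

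KRTDAP was likewise measured on all 15 arrays, and its 5 spots differed on an array by an SD of 0.033 to 0.273. It stood at 5.70 and 8.22 in the skins of MalcolmX and Rosco, and at −3.02, −3.60, −4.33 and −3.83 in the resistant biopsies of MalcolmX, Jake, Rosco and Dog Y. The levels were −2.49 in the biopsy of Thai, −3.99 in the MalcolmX aspirate, −2.95 in the second resistant aspirate of Rosco and −1.99 after death. After failed chemotherapy the level was −1.32, in remission −1.71, and in the 3 relapse aspirates −2.25, −2.32 and −3.09. As for KRT2, the failed-chemotherapy and remission aspirates were the highest lymphoma arrays.

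DSG1 was read from the probe with the higher mean over the 15 arrays. It stood at −0.61 in the skin of MalcolmX and 2.93 in that of Rosco. Of the lymphoma arrays only 3 were well above background: the failed-chemotherapy aspirate (−5.54), the remission aspirate (−4.03) and the biopsy of Thai (−6.28). The other 10 lay between −8.95 and −6.44. The second DSG1 probe was well above background in both skins (0.78 and 3.94) and on 0 of the 13 lymphoma arrays. It therefore did not register the failed-chemotherapy and remission signal of the first probe, and read −8.29 and −8.23 there.

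SPINK5 showed a similar split between probes. The probe used for the tests was well above background on all 15 arrays, at 3.40 and 6.24 in the skins of MalcolmX and Rosco and between −3.95 and −2.46 on the lymphoma arrays. A second probe behaved alike, with 3.56 and 6.40 in skin and −4.66 to −2.45 in lymphoma. The other 2 probes were well above background in both skins but on only 1 and 4 of the 13 lymphoma arrays, so the residual SPINK5 signal in tumours depends on the probe. All 4 probes were lower in every lymphoma array than in either skin.

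**Figure D1:**
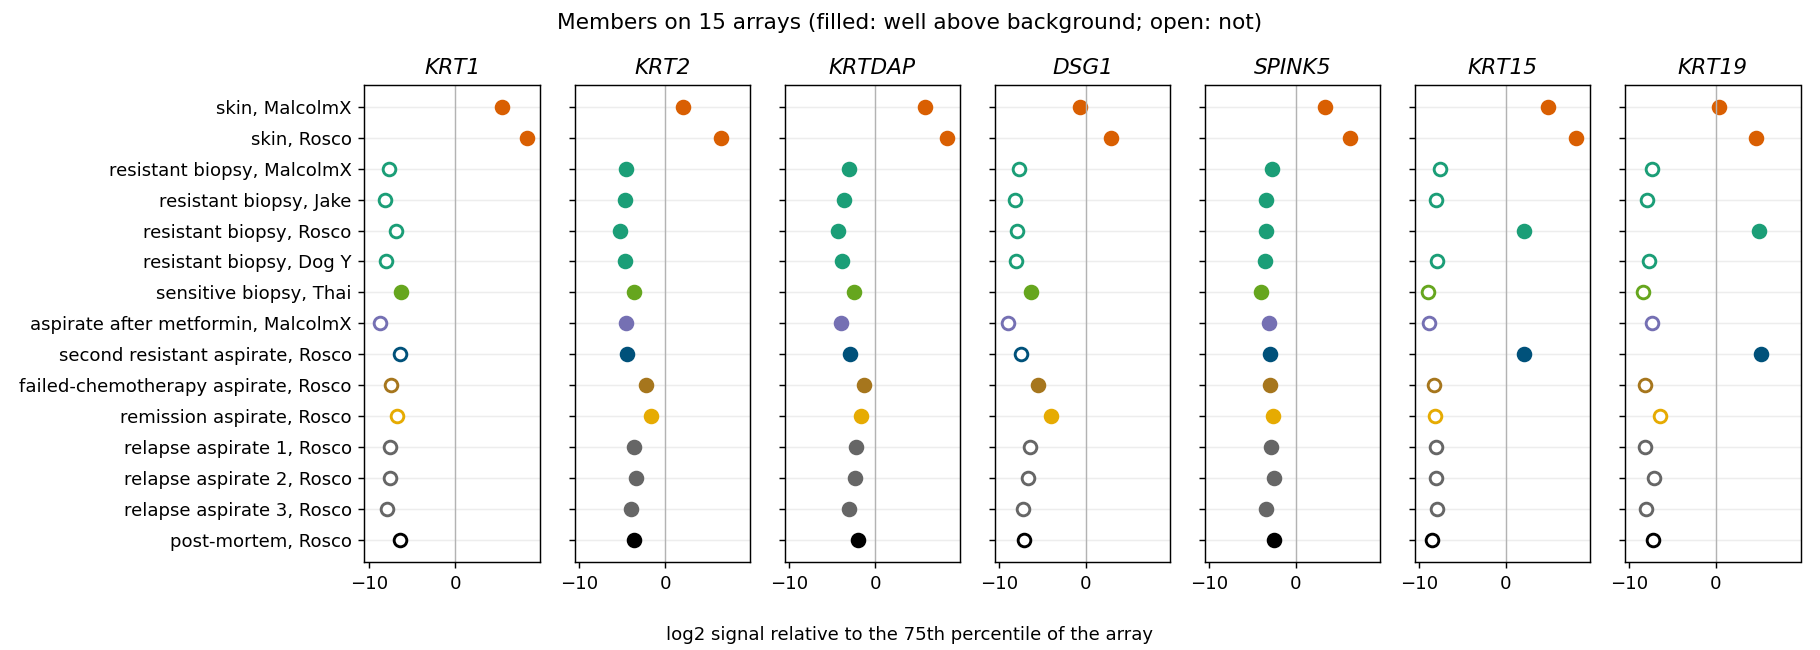
Level of the 7 genes (log2 signal relative to the 75th percentile of the array, horizontal axis) on each of the 15 arrays (rows, coloured by sample group), with filled points well above background and open points not. All 7 genes are filled in both skins, and KRT15 and KRT19 are filled in only 2 lymphoma samples, the Rosco biopsy (2.12 and 5.02) and the second resistant aspirate of Rosco (2.07 and 5.19).

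KRT15 and KRT19 followed another pattern. KRT15 stood at 4.92 in the skin of MalcolmX and 8.12 in that of Rosco, at 2.12 in the Rosco biopsy and at 2.07 in the second resistant aspirate of Rosco. The other 11 lymphoma arrays were not well above background and lay between −8.91 and −7.62. KRT19 stood at 0.44 and 4.62 in the skins of MalcolmX and Rosco, at 5.02 in the Rosco biopsy and at 5.19 in the second resistant aspirate, again with the other 11 lymphoma arrays not well above background (−8.41 to −6.48). For KRT15 the 2 Rosco tumour samples thus lay below both skins, and for KRT19 above both. In those samples genes of the layers above the basal one stayed low: KRT1 was not well above background (−6.86 and −6.37), nor was DSG1 with either probe. The basal keratin KRT14 did not stay low, at 3.58 in both against 1.02 to 2.04 on the other 11 lymphoma arrays.

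**Figure D2:**
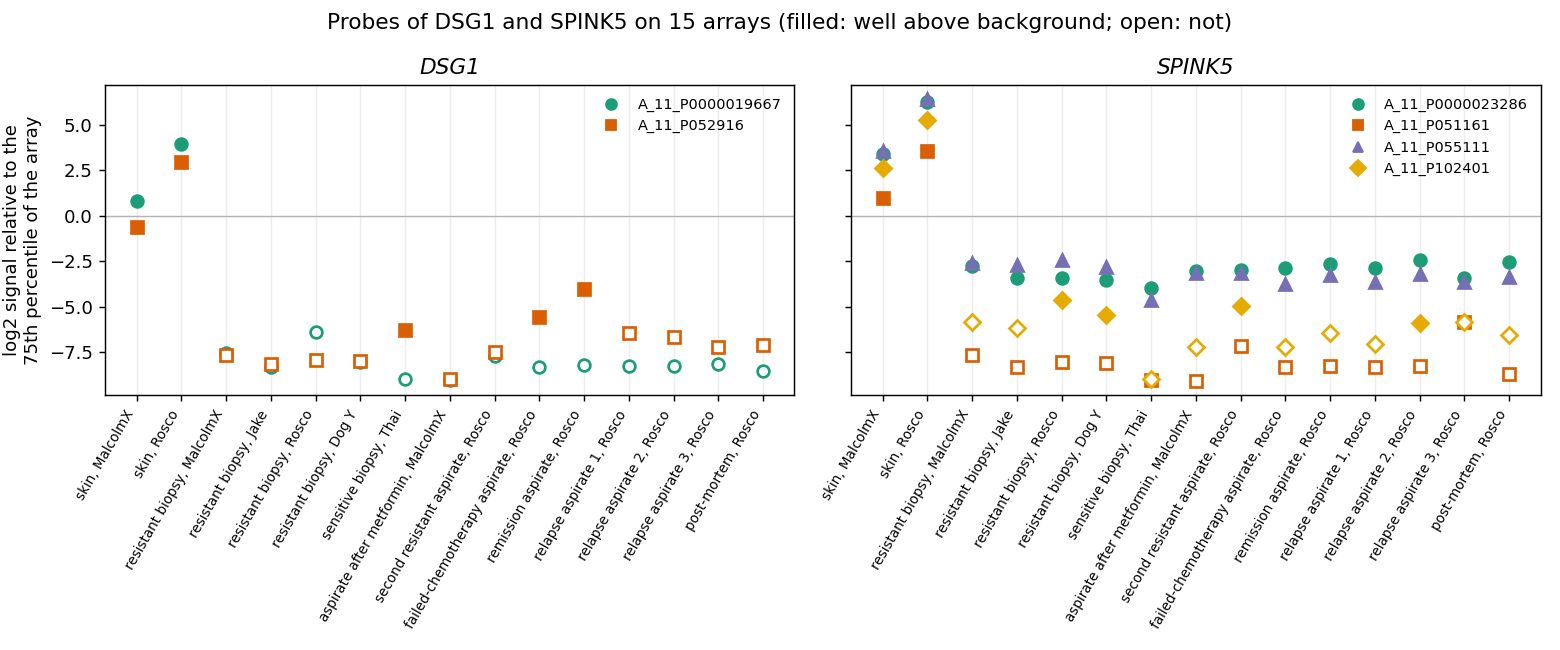
Level of each probe of DSG1 (left) and SPINK5 (right) on the 15 arrays (log2 signal relative to the 75th percentile of the array, vertical axis), with filled points well above background and open points not. The DSG1 probes part in the failed-chemotherapy (−5.54 and −8.29) and remission aspirates (−4.03 and −8.23), and 2 of 4 SPINK5 probes are filled on all 15 arrays.

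Resistant biopsies (4) were compared with skin (2), the control tissue of the series. All 7 genes had a lower mean in the biopsies, and 5 of 7 passed the test: KRT1, KRTDAP, SPINK5, DSG1 and KRT2. Over all targets 102 of 23952 (0.426%) were called lower and 2 higher, and the median difference of all targets was 0.25. The mean level of KRT1 was −7.67 ± 0.58 (SD, n = 4) in biopsies against 6.81 ± 2.05 (SD, n = 2) for skin, at least 12850-fold lower (limma, adjusted p = 0.00577). KRTDAP differed by −10.66 (SE 0.756, limma adjusted p = 0.00849) and SPINK5 by −8.12 (SE 0.788, limma adjusted p = 0.0219). DSG1 was at least 259-fold lower (limma, adjusted p = 0.0247), and KRT2 differed by −9.07 (SE 1.12, limma adjusted p = 0.0417). KRT1, DSG1, KRT15 and KRT19 entered the test only through their level in skin, so a difference was built into that selection. A lower level in bulk tissue can come from fewer cells of a type or from less RNA per cell, and these cannot be told apart here.

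KRT15 and KRT19, measured in 1 of the 4 biopsies, did not pass, with differences of −11.88 (SE 3.10, limma adjusted p = 0.234) and −7.04 (SE 3.96, limma adjusted p = 0.4). The Rosco biopsy alone was high for both, and for KRT19 it lay above both skins, so its groups overlapped. Without that biopsy all 7 genes were called lower, against 1627 of 24444 targets (6.66%) called lower and 3124 called in all. KRT15 was then at least 10460-fold lower in the biopsies (limma, adjusted p = 0.00701) and KRT19 at least 658-fold lower (limma, adjusted p = 0.0167). The biopsy left out was the only one that measured these 2 genes, so a lower level was built into this fit. Its p-values for them are no separate support. Leaving out another biopsy moved the count the other way. It was 1 of 7 without that of MalcolmX, 2 of 7 without that of Dog Y, and 0 of 7 without that of Jake, where 6 of 7 had an unadjusted p under 0.05 in the limma fit. Calls over all targets fell as well, to 11 of 24259 without the biopsy of MalcolmX and 5 of 23999 without that of Jake. In the latter fit 2192 targets had an unadjusted p under 0.05 in limma. Without either skin 5 of 7 were called, with 327 and 321 targets in all.

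Within slides all 7 genes kept the same sign, with fewer of them called. With slide as a block, 3 of 7 genes were called (KRT1, KRTDAP and SPINK5). KRT2 and DSG1 then missed the threshold with differences of −8.60 and −8.67 (limma adjusted p = 0.0899 and 0.057). With normexp background correction 2 of 7 were called (KRT1 and KRTDAP), against 8 of 23952 targets. KRT1 then differed by −10.20 and DSG1 by −4.64, less than their bounds above, which hold for the processed signal alone. The KRT2 call was also lost with no filter (limma adjusted p = 0.0705) and with the values of the series table (limma adjusted p = 0.0533). On slide 1, which held the skin of MalcolmX and 3 biopsies, KRT1 was at least 4868-fold lower in the biopsies and was the only gene called, with a limma adjusted p of 0.0494. That test assumes that the lone skin varied like the biopsies. KRTDAP differed there by −9.62, KRT2 by −6.97 and SPINK5 by −6.88, and DSG1 was at least 78.9-fold lower. On slide 2, the biopsy of MalcolmX stood against the skin of another dog, Rosco, with 1 array per group and no test. KRT1 was at least 31710-fold lower there and SPINK5 differed by −8.99. Against the skin of MalcolmX itself, SPINK5 in that biopsy differed by −6.14. With MalcolmX and Rosco alone, each pairing a biopsy with skin, and the dog as a fixed block, limma called 0 of 7 genes and 0 targets, while 6 genes and 2160 targets had an unadjusted p under 0.05.

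**Figure D3:**
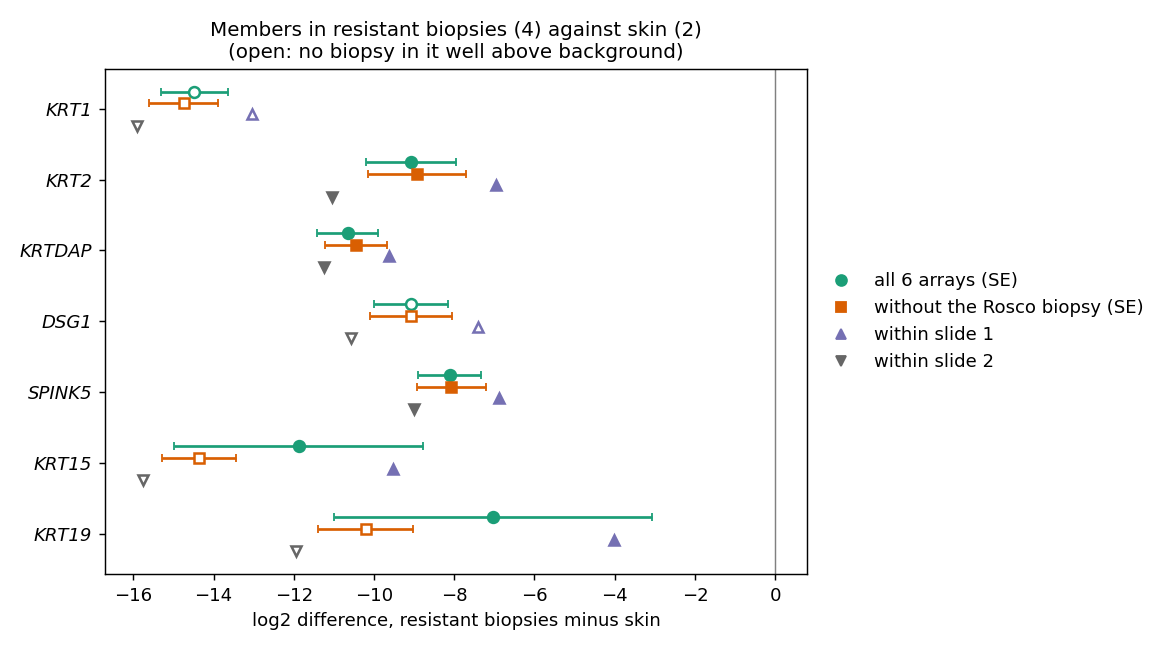
Difference in log2 level between resistant biopsies and skin (horizontal axis) for each gene, over all 6 arrays and without the Rosco biopsy (bars are the standard error of the limma fit), and within slides 1 and 2 (no bars). Open points mark genes that no biopsy of that subset had well above background, so that they plot the measured signal and only a bound holds. All points lie below 0, and the wide bars of KRT15 (SE 3.10) and KRT19 (SE 3.96) belong to the fit with the Rosco biopsy.

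Other genes of the skin lists also had lower means in the biopsies, but none of those in the keratin, barrier and desmosome lists passed with all 4 biopsies. Without the Rosco biopsy, an alternative added for these lists after the data were seen, 7 of 11 passed. Of 16 epidermal keratins 3 were named on the array, and the 1 that is not among the 7 genes was KRT14, the basal partner keratin. KRT14 was well above background on all 15 arrays and differed by −5.14 (limma adjusted p = 0.111). It was highest in the skin of Rosco, at 7.79, and stood at 3.58 in the Rosco biopsy and 1.11 to 1.19 in the other biopsies. Of the cornified envelope and barrier genes 7 were tested, 7 were lower, and 2 were called, both among the genes above (KRTDAP and SPINK5). KLK5, a protease that LEKTI inhibits, was not well above background in the biopsies and was at least 66.4-fold lower there without passing (limma adjusted p = 0.0922). TGM1, the transglutaminase that crosslinks the cornified envelope, differed by −4.33 (limma adjusted p = 0.132). Of 6 desmosome and adhesion genes all were lower, and only DSG1 was called. Leaving out the 7 genes, the median difference was −4.33 for the barrier list and −3.19 for the desmosome list. Without the Rosco biopsy KRT14 differed by −5.74 (limma adjusted p = 0.0133) and TGM1 by −4.16 (limma adjusted p = 0.0389), and KLK5 was at least 60.6-fold lower (limma adjusted p = 0.032). Of the 5 other desmosome and adhesion genes 4 were then called lower, the exception being CDH1 (−4.10, limma adjusted p = 0.0684). Among the genes called in this fit, KLK5, DSG3 and PKP1 were well above background in none of the remaining biopsies. They entered it only through skin, so a lower level was built in. DSG3 and PKP1 were measured in the biopsy left out.

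Tissue other than epidermis differed between these groups as well. All 4 fat cell genes and all 6 tested muscle genes were lower in the biopsies, with 2 of 4 and 0 of 6 called. The log2 of the summed signal of the fat cell genes was 4.90 to 5.40 in skin and −1.04 to 0.01 in the biopsies. For the muscle genes it was 6.71 to 8.14 in skin and −3.10 to 1.14 in the biopsies. An unadjusted p under 0.05 was reached by 5 of the 6 muscle genes in the limma fit. In the hair follicle list limma called 0 of 2 tested genes and in the glandular list 0 of 9, with 1 and 2 genes at an unadjusted p under 0.05. It also called 0 of 7 melanocyte, 0 of 8 fibroblast, 0 of 4 T and NK cell, and 0 of 5 macrophage and neutrophil genes, each list with 2 genes at an unadjusted p under 0.05. The B cell list had 1 tested gene, neither called nor at an unadjusted p under 0.05. None of the 11 keratinocyte transcription factors was named on the array. Without the Rosco biopsy 3 of 4 fat cell genes, 4 of 6 muscle genes and 3 of 9 glandular genes, KRT19 included, were called lower. Of these, FFAR4, MYH2, MYL2, CES1 and KRT19 were well above background in none of the remaining biopsies. They entered that fit only through skin, so a lower level was built in. The part of these tissues in the differences of the 7 genes was not tested.

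The 2 skins differed from each other in all 7 genes. Rosco's was higher by 2.90 for KRT1, 4.36 for KRT2, 2.52 for KRTDAP, 3.54 for DSG1, 2.85 for SPINK5, 3.21 for KRT15 and 4.18 for KRT19. The median difference over 23453 targets well above background in both was 0.05. With 1 array per dog there is no replicate check. The 6 other barrier genes were higher in the skin of Rosco by a median of 3.45, and the 5 other desmosome and adhesion genes by a median of 3.14. KRT71, a keratin of the inner root sheath of hair, was measured in the skin of Rosco alone (0.63), against −6.94 in that of MalcolmX. KLK6 was likewise measured in the skin of Rosco alone, at 0.15 against −7.91. Both were singled out after their values were seen.

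Muscle and B cell genes went the other way. In the skin of MalcolmX 6 of 7 muscle genes were higher (median difference of the list, Rosco minus MalcolmX, −5.43), and MYH2, a myosin of fast muscle, stood at 7.25 against 2.16 in the skin of Rosco. Both B cell genes on the array were higher there as well. Of the fat cell genes 3 of 4 were also higher in the skin of MalcolmX (median difference −0.66). The fibroblast genes (7 of 8), the macrophage and neutrophil genes (5 of 6) and the gland genes other than KRT19 (8 of 9) were higher in the skin of Rosco, with median differences of 1.04, 0.38 and 1.44. The part of these tissues in the difference between the skins was not tested. Since the skin group has only these 2 arrays, the gap enters the error of every comparison with skin.

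**Figure D4:**
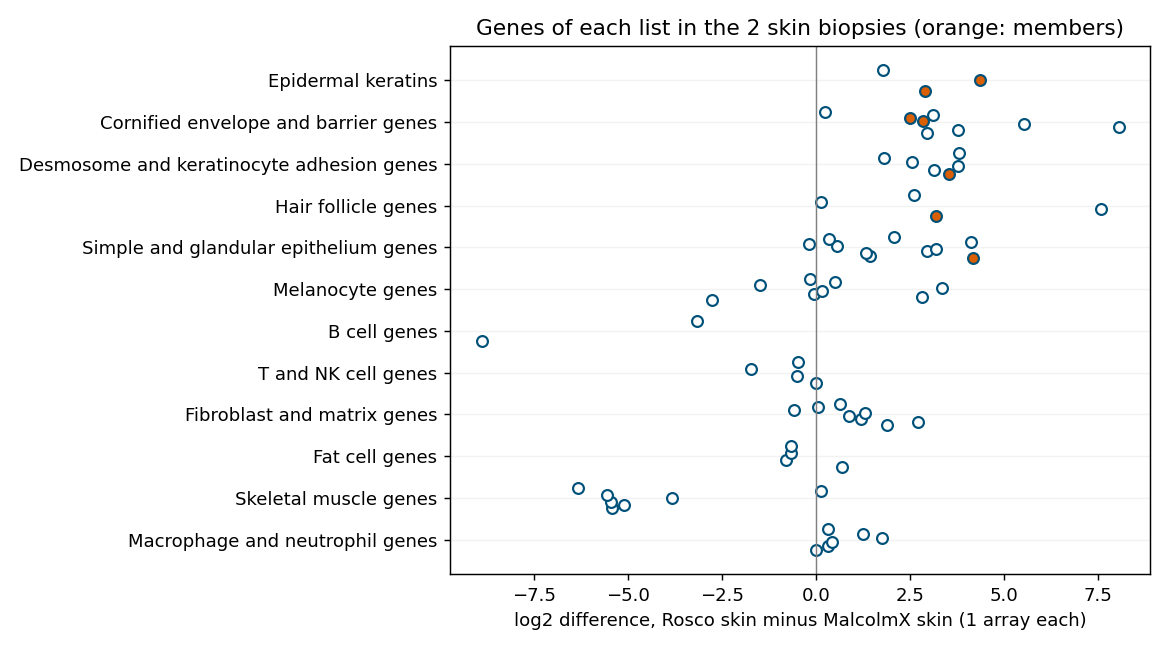
Difference in log2 level between the skin of Rosco and that of MalcolmX (horizontal axis, 1 array each) for genes measured in at least 1 of them, by list, with the 7 genes in orange. The orange points lie between 2.52 and 4.36, and 6 of 7 muscle genes lie below 0.

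In Rosco, the 2 samples labelled as original tumour (the biopsy and the second resistant aspirate) were compared with the 3 relapse aspirates. KRT15 and KRT19 were higher in the original-tumour samples and KRT2 was lower, so 3 of 5 tested genes were called. This has to be read against 13813 of 25696 targets (53.8%) called in the same comparison. KRT15 averaged 2.09 ± 0.04 (SD, n = 2) against −8.00 ± 0.02 (SD, n = 3), at least 336-fold higher (limma, adjusted p = 1.23e-06). KRT19 averaged 5.10 ± 0.12 (SD, n = 2) against −7.76 ± 0.60 (SD, n = 3), at least 2707-fold higher (limma, adjusted p = 3.38e-06). Both entered the test only through the original-tumour samples. At relapse neither gene was well above background, so their SDs there are a spread of background signal. The p-values rest on that spread and do not measure how expression varies. Within slide 4, which held the second resistant aspirate and relapse aspirates 2 and 3, a single array thus stood against 2. KRT15 was at least 266-fold higher there, and the bound for KRT19 was 2314-fold.

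Differences of KRT2, KRTDAP and SPINK5 were smaller. KRT2 was lower by 1.16 on the log2 scale in the original-tumour samples (a difference of −1.16, SE 0.326, limma adjusted p = 0.0226). Its groups did not overlap, at −5.25 and −4.38 against −3.95 to −3.40. Within slide 4, with a single original-tumour array assumed to vary like the relapse aspirates, the difference was −0.71 (limma adjusted p = 0.276). The call was also lost with normexp background correction (difference −0.35), without the Rosco biopsy (difference −0.73, limma adjusted p = 0.114), without relapse aspirate 1 (limma adjusted p = 0.0611) and without relapse aspirate 2 (limma adjusted p = 0.0635). KRTDAP differed by −1.09 (limma adjusted p = 0.0921) and SPINK5 by −0.30 (limma adjusted p = 0.475), and in both the groups overlapped. The sign of SPINK5 turned with the mean of its 4 probes (0.44). The KRTDAP difference passed with quantile (−1.39) or median scaling (−1.36) and without the second resistant aspirate (−1.78, limma adjusted p = 0.0235). KRT1 and DSG1 were not well above background in either group and were not tested.

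Gland and adhesion genes accompanied KRT15 and KRT19. All 11 tested genes of the simple and glandular epithelium list, KRT19 included, were called higher in the original-tumour samples, with a median difference of 5.41 against −0.22 over all targets. Of all targets called, 46.4% were higher, or 36.0% with the median of each array as the scale. CES1, a carboxylesterase, was at least 4672-fold higher, and CFTR, the chloride channel of secretory epithelia, at least 156-fold higher. KRT19, CES1 and CFTR were not well above background at relapse. These 3 genes entered the test only through the original-tumour samples, so a higher level was built in for them. Of the desmosome and adhesion genes 5 of 5 were called higher, and 3 of these 5 were not well above background at relapse. DSG3, the desmoglein of deep epidermis and mucosa and one of those 3, was at least 23.6-fold higher, and CDH1, the cadherin of epithelial junctions, was higher by 5.28. KRT14 was higher by 1.89 (limma adjusted p = 0.00123). Of the barrier list limma called 0 of 4 tested genes, and 0 of 4 had an unadjusted p under 0.05.

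The log2 of the summed signal of the gland genes other than KRT19 was 9.34 in the Rosco biopsy and 9.56 in the second resistant aspirate. It was 0.90 to 2.20 on the other 11 lymphoma arrays and 5.38 and 7.48 in the skins. CA6 made up most of the sum in those 2 Rosco samples (8.59 and 8.99), and CES1 in the skins (5.26 and 7.35). The sums of tumour and skin thus weigh different genes. Both B cell genes were called lower in the original-tumour samples (median difference −7.08, or −6.73 with MS4A1 at its bound). MYH2 stood at −1.92 and −2.02 in these samples against −5.35 to −4.42 at relapse, where it was well above background as well. Of 5 tested muscle genes 3 were called higher and 0 lower. DCN stood at 6.48 and 6.37 against −4.12 to −1.89 at relapse, while 4 of 8 fibroblast and matrix genes were called higher and 1 lower. The part of glandular tissue in the KRT15 and KRT19 levels was not tested. Within Rosco, the biopsy minus skin difference was −6.01 for KRT15 and 0.40 for KRT19.

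**Figure D5:**
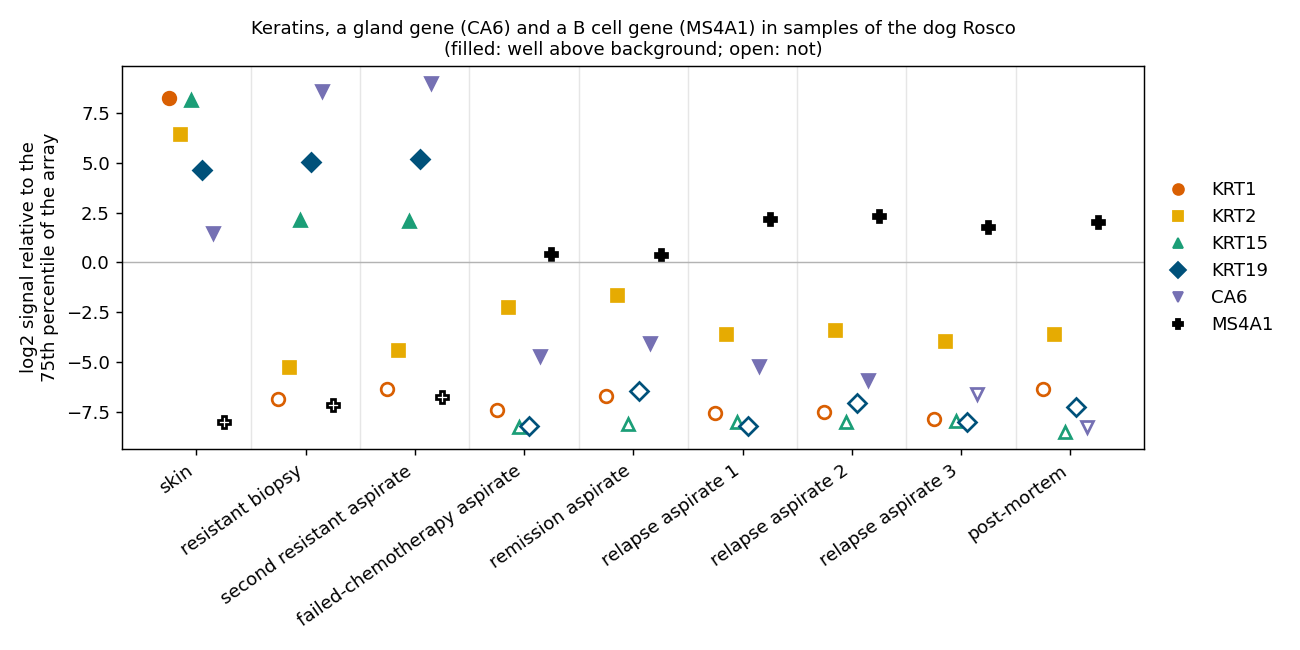
Level of KRT1, KRT2, KRT15 and KRT19, of the gland gene CA6 and of the B cell gene MS4A1 (log2 signal relative to the 75th percentile of the array, vertical axis) in the 9 samples of Rosco, with filled points well above background and open points not. In the resistant biopsy and the second resistant aspirate KRT15, KRT19 and CA6 are filled while KRT1 and MS4A1 are open, and KRT2 is highest outside skin in remission (−1.63).

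The course of treatment in Rosco was addressed by setting the relapse aspirates (3) against the failed-chemotherapy and remission aspirates (2). KRT2, DSG1 and KRTDAP were lower at relapse, 3 of 4 tested genes, of which DSG1 entered the test only through the earlier aspirates, while 4145 of 25381 targets (16.3%) were called lower. Of all calls 51.5% were higher at relapse, or 62.5% with the median of each array as the scale. KRT2 averaged −3.66 ± 0.28 (SD, n = 3) at relapse and −1.93 ± 0.42 (SD, n = 2) before, a difference of −1.73 (SE 0.268, limma adjusted p = 0.00525). It was called in every leave-one-out fit, and its difference within slide 4, with the remission aspirate alone assumed to vary like the relapse aspirates, was −2.05 (limma adjusted p = 0.0434). Within slide 3, with 1 array per group, it was −1.39. KRT15, KRT19 and KRT1 were not well above background in either group and were not tested.

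DSG1 was at least 2.55-fold lower at relapse (limma, adjusted p = 0.0225), but only on 1 of its 2 probes. Its second probe, not well above background in any of these 5 samples, differed by 0.04. The call was lost without the remission aspirate (difference −1.24, limma adjusted p = 0.098), without relapse aspirate 3 (limma adjusted p = 0.0564) and with normexp background correction (difference −0.53). KRTDAP differed by −1.04 (SE 0.311, limma adjusted p = 0.0466), and its call was lost with slide as a block (limma adjusted p = 0.0582), with quantile (limma adjusted p = 0.0579) or median scaling (limma adjusted p = 0.0586) and in every leave-one-out fit but that without relapse aspirate 3. SPINK5 differed by −0.14 (limma adjusted p = 0.756), with overlapping groups and a sign that turned under quantile (0.051) and median scaling (0.046).

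Epithelial adhesion genes outside the 7 were lower at relapse too. CDH1 differed by −1.76 (limma adjusted p = 0.00197) and JUP, the plakoglobin of desmosomes, by −1.16 (limma adjusted p = 0.00581), so that with DSG1 3 of 4 tested genes of that list were called lower. Of the barrier list TGM1 and KRTDAP were called lower, 2 of 5. KRT14 differed by −0.25 (limma adjusted p = 0.492). The simple and glandular epithelium list was mixed, with 1 of 8 tested genes called higher and 1 lower. These were SPINT2 (0.99, limma adjusted p = 0.0272) and CA6 (−1.53, limma adjusted p = 0.0408). Of other cell types, 4 of 5 T and NK cell genes were called lower at relapse and both B cell genes higher. Among 5 tested muscle genes 2 were called higher and 2 lower, and among 6 macrophage and neutrophil genes 2 were called higher and 0 lower. The log2 of the summed signal of the T and NK cell list was 3.59 and 3.66 in the earlier aspirates and −1.15 to −0.72 at relapse. Of the fibroblast and matrix genes 3 of 8 were called lower and 1 higher. The log2 of their summed signal was 7.29 and 7.55 in the earlier aspirates and 4.80 to 4.98 at relapse. The part of these shifts in the levels of KRT2, DSG1 and KRTDAP was not tested.

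Pairs of single samples gave values without a replicate check. In MalcolmX, the aspirate after metformin differed from the biopsy by 0.06 for KRT2, −0.97 for KRTDAP and −0.28 for SPINK5, and the other 4 genes were not well above background in either. From failed chemotherapy to remission in Rosco, KRT2 differed by 0.60, KRTDAP by −0.39, SPINK5 by 0.26 and DSG1 by 1.51. The sample taken after death held KRTDAP at −1.99, above the relapse aspirates (−3.09 to −2.25), and KRT2 at −3.59, within their range.

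Scan day separated some of these levels among the lymphoma samples. KRT2 lay between −5.25 and −4.55 on the 5 lymphoma arrays of the first day and between −4.38 and −1.63 on the 8 of the second, with no overlap. KRTDAP lay between −4.33 and −3.02 on the first day and −3.09 and −1.32 on the second. DSG1 lay between −8.95 and −7.64 against −7.49 and −4.03. It was well above background on only 3 of the 13 lymphoma arrays, all of the second day, so most of these DSG1 values are background signal. All lymphoma arrays of the second day except that of Thai came from Rosco, and 1 of the 5 of the first day did, so scan day, dog and stage cannot be told apart for these genes.

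Genes with the most similar profile were sought among 1164 named genes well above background on at least 3 arrays. Pearson r was taken over all 15 arrays, which share dogs, slides and the contrast of skin with tumour, and is given as a description. For KRT1 they were SPINK5 (0.977), KRTDAP (0.976), KLK5 (0.961), GPX3 (0.945) and CBD103 (0.944). These values rest on the skins, since KRT1 was well above background on 1 of the 13 lymphoma arrays. KRT2 was closest to DSG1 (0.988), KRTDAP (0.981), KLK5 (0.961), SPINK5 (0.958) and TGM1 (0.945). Among the 13 lymphoma arrays, all of which had KRT2 and KRTDAP well above background, their r was 0.897. SPINK5 and TGM1 were well above background on these arrays too, and their r with KRT2 there was 0.442 and 0.383.

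For KRTDAP the closest genes were KRT2, SPINK5, KRT1, DSG1 and KLK5, with r from 0.967 to 0.981, and for DSG1 they were KRT2, KRTDAP, KRT1, KLK5 and SPINK5, from 0.935 to 0.988. SPINK5 was closest to KRTDAP, KRT1, KLK5, KRT2 and DPT, from 0.955 to 0.977. Among the 13 lymphoma arrays its r with these genes was lower, from 0.057 to 0.552. KRT15 had a different set: DSG3 (0.990), ANGPT1 (0.983), CES1 (0.953), JUP (0.953) and KRT14 (0.942). KRT19 was closest to CGN, a tight junction protein, at 0.987, then AZGP1 (0.985), FGFR2 (0.977), BCL2L2 (0.972) and SULT1A1 (0.970). None of the 5 genes closest to KRT15 or KRT19 was among the 5 closest to KRT1, KRT2, KRTDAP, DSG1 or SPINK5. DSG3 and KRT14, close to KRT15, are themselves genes of the deep epidermis.

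KRT15 and KRT19 had an r of 0.940 with each other over 15 arrays, of which 4 were well above background for both. In the RefSeq annotation of the UU_Cfam_GSD_1.0 assembly, KRT15 and KRT19 lie on the same chromosome with 0 genes between them, and so do KRT1 and KRT2. The neighbours KRT1 and KRT2 differed in one respect on these arrays: KRT2 was well above background on all 15 and KRT1 on 3.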

How the data were processed

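Per the labels, RNA was labelled by a 1-colour Agilent protocol. The deposited scanner files hold a processed signal intensity per spot and flags (0 or 1) for spots well above background, saturated or outlying, and the authors extracted them with Agilent Feature Extraction 11.0.1.1, per the file headers and the submitters' processing notes. The deposited series table holds intensity as spot median minus local background median, equal to the scanner values within 0.01 in 678300 of 678300 cells. The build of the array grid, probe sequences and genome positions were not used here.

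The log2 of the processed intensity minus the array's 75th percentile was computed in Python 3.11.15, leaving out control and outlying spots and averaging spots of a probe. Probes were named through RefSeq identifiers (2186 of 43603 probes, 5.01%). A target with several probes was read from the one with the highest mean. A target entered a test if all arrays of 1 or both groups had it well above background. Tests used limma 3.58.1 (R 4.3.3) and were two-sided. P-values were adjusted by Benjamini-Hochberg across every target in the test, and calls were made at 0.05. The script was tested on simulated data. "At least" folds are taken from the brighter group's mean and a floor for the dimmer group, where each array counts at its own value or at its lowest well-above-background signal, whichever is higher. They are bounds on this scale of the processed signal, and another background correction can give smaller differences. Where leaving out an array or keeping to 1 slide left 1 array in a group, that array was assumed to vary like the other group. Replicate numbers pair no samples across groups, and the dog pairs skin and biopsy in MalcolmX and Rosco.

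The 7 genes and the 13 marker lists were chosen with earlier results of these data known. The rule for other genes took the 3 of each list with the largest difference in each comparison, the 5 with the most similar profile to each of the 7 genes, and defining markers of other cell types.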

Additional observations from a re-analysis of the deposited data

Results flagged for a closer look

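Among the 4 resistant biopsies, 3 values stood far from the rest of their group relative to its range, a flag that chance raises in about 1 in 20 groups. KRT15 in the Rosco biopsy was at 2.12, and the other 3 biopsies lay between −8.03 and −7.62. KRT19 in the same biopsy was at 5.02, against −7.97 to −7.32. SPINK5 in the MalcolmX biopsy was at −2.75, against −3.56 to −3.43, a gap small beside the distance to skin. The biopsy minus skin difference of KRT19 had opposite signs in the 2 dogs with both samples, 0.40 in Rosco and −7.76 in MalcolmX. With 1 array of each kind per dog, this difference between dogs was not tested.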

How the results depend on the processing

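Of 245 tested differences of single genes under alternatives, 188 kept their direction and side of the threshold, 47 lost a call, 5 gained one and 5 reversed. Of 11 without a test, 5 moved by less than the spread between replicates, 5 by more and 1 reversed. For resistant biopsies against skin, targets called (104) numbered 8 with normexp background correction, 66 with no filter, 32 with slide as a block, 40 within slide 1 and, for MalcolmX and Rosco alone with dog as a fixed block, 0 (2160 at an unadjusted p under 0.05 in limma). They ranged from 5 to 3124 when 1 array was left out. Genes among the 7 called (5) numbered 2, 4, 3, 1 and 0 under the same settings (6 at an unadjusted p under 0.05 in the last), and 0 to 7 with 1 array left out. For Rosco's original-tumour samples against relapse, targets (13813) numbered 8580 with slide as a block, 8511 within slide 4 and 11246 to 13988 with 1 array left out, and genes (3) 2 to 4. For relapse against the earlier aspirates, targets (8554) numbered 2497 within slide 4 and 3769 to 9763 with 1 array left out, the lowest without the remission aspirate. Genes (3) numbered 1 with no filter and 1 to 2 with 1 array left out. The causes were not tested. SPINK5 reversed to 0.44 in the first Rosco comparison with the mean of its probes. In the second it reversed to 0.32 with that mean, 0.051 with quantile scaling, 0.046 with median scaling and 0.048 within slide 3, and ranged from −0.37 to 0.11 (without relapse aspirates 2 and 3) with 1 array left out. None of these passed the test or, within slide 3, had one. Median scaling moved the median difference of all targets from 0.25 to 0.50 for biopsies against skin. The dog pairs biopsy and skin in MalcolmX and Rosco alone, where KRT1 differed by −14.07 (limma adjusted p = 0.0696). The labels give these groups no replicate numbers. Signals not well above background limit KRT1, KRT15, KRT19 and DSG1 to bounds in most tumours.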

Other observations

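In the biopsy of Thai, the single drug-sensitive tumour, KRT1 (−6.28) and DSG1 (−6.28) were well above background, as in no resistant biopsy. The lowest signal well above background on that array was −8.43, against −7.04 to −6.69 on the arrays of the resistant biopsies, so the flag reaches lower there. The second DSG1 probe was not well above background in that sample.

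The pigment cell gene TYR was well above background in 2 samples, the resistant biopsy of MalcolmX (−4.08) and the skin of the same dog (−5.21), and TYRP1 in 1, the skin of Rosco (−5.10). TYR did not follow the 7 genes, which were low in the resistant biopsy of MalcolmX. TYRP1 was measured on too few arrays to be set beside them.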
